A study of Neurospora crassa with 12 samples.

Results

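The 35 genes described here were abundant when conidia of *Neurospora crassa* began polar growth, and their mean transcript levels were then lower at each of the later stages of hyphal growth. They were chosen by their own stage means in CPM, the counts of a gene per 1000000 counts of its library. A gene was taken when its mean at 120 min was at least 20 CPM and at least 0.25 times its mean at 15 min, when its mean fell from 120 to 240 min and again from 240 to 360 min, and when its mean at 360 min was at most 0.6 times that at 120 min. The 177 genes that the study placed in secondary metabolism clusters were to be left out, and none of them met the other conditions. The rule found 35 of the 10592 genes in the table, and all 35 passed the filter on low counts that left 8118 genes for testing. Because the rule used these stage means, the members' levels and changes are a description. Where calls from the fit across all genes are counted for the members, they stand beside the share of all genes called and are no test of the set.

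The study followed macroconidia of the wild-type strain FGSC2489 from spreading to hyphal branching by RNA sequencing. The spores had formed on Bird medium, a synthetic medium for asexual growth, and were spread on cellophane over potato dextrose agar (PDA) under continuous light. The 4 groups were fresh spores (15 min), spores with the earliest polar growth (120 min), germlings whose long axis had doubled (240 min), and colonies at the earliest hyphal branching (360 min). Each group had 3 biological replicates, each made of all tissue from several plates collected together. No gene was deleted and no agent was added in any group. Tissue was collected once most active spores had reached a stage, at approximate times, so the groups differed in time and stage together. The labels and the study's methods give 25°C for these plates, while a table of the study gives another temperature.

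A conidium is a dormant asexual spore that carries stored RNA, protein and amino acids, and on germination it rebuilds its metabolism before a germ tube grows out. *N. crassa* keeps much of its arginine in the vacuole. Arginase cuts arginine to ornithine and urea, ornithine transaminase passes the carbon of ornithine toward glutamate and proline, and an arginine-specific carbamoyl phosphate synthetase starts the route from ornithine back to arginine. Many amino acid genes of this fungus are under cross-pathway control, in which a shortage of 1 amino acid raises transcripts for the synthesis of many through the transcription factor *cpc-1*.

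The 12 libraries held 51555784 to 84946272 counts. The conidial genes *eas* (the hydrophobin of the spore coat), *con-6*, *con-8*, *con-10* and *con-13* summed to 4019 to 4364 CPM in the 15 min libraries and to 13.5 to 34.9 CPM in all later ones, with *con-13* at 0 in 7 of the 9 later libraries. The share of counts on ribosomal RNA (rRNA) genes was 11.7% in 360 min replicate 3, against 2.08% and 2.51% in the other 360 min libraries, and 10.2% in 15 min replicate 2. Scaling by trimmed means (TMM), which edgeR uses, also moved the 360 min stage: with library totals alone, the median log2 fold change from 120 to 360 min of all tested genes was 0.26, against 0.02 with TMM. The log2 fold changes below are on the TMM scale, and the CPM values and their ratios are on the scale of library totals that the rule used.

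Together the 35 genes took a falling share of all counts. The share was 1.37%, 1.32% and 1.37% in the 15 min libraries, 1.19%, 1.12% and 1.11% at 120 min, 0.909%, 0.888% and 0.883% at 240 min, and 0.654%, 0.624% and 0.479% at 360 min. The 4 stages did not overlap, and 360 min replicate 3 was the lowest library of all. The stage means were 1.35% ± 0.030 in fresh spores, then 1.14% ± 0.046, then 0.893% ± 0.014, and then 0.586% ± 0.093 at branching (SD, n = 3). In whole-culture RNA, fewer cells that hold a transcript and less of it per cell cannot be told apart.

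**Figure D1:**
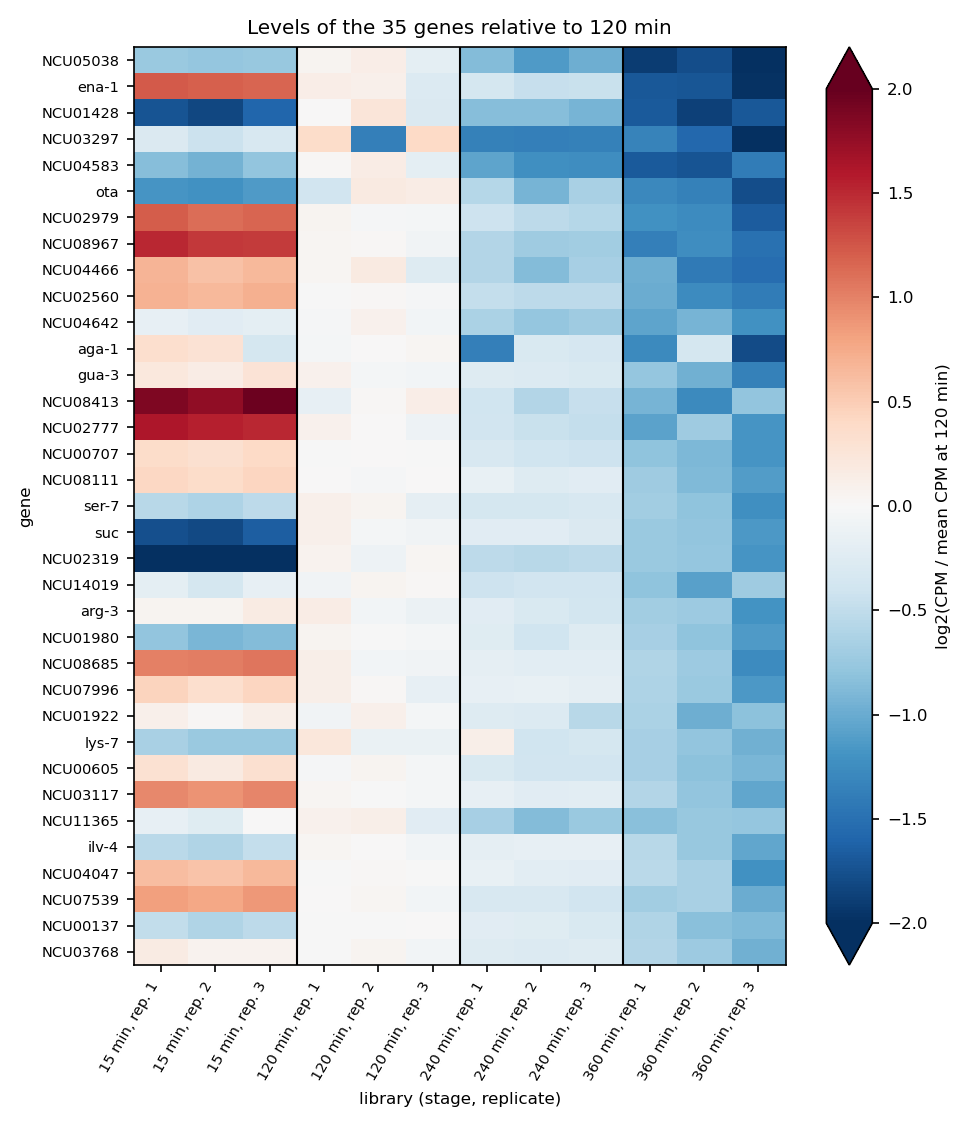
Heat map of the 35 genes (rows, from the lowest to the highest ratio of 360 to 120 min) in the 12 libraries (columns), with the color giving log2 of the CPM over the gene's own mean at 120 min and ending at 2 and −2. The 15 min columns are red for some genes and blue for others, while the 360 min columns are blue for all, and NCU03297 at 120 min replicate 2 and *aga-1* at 360 min replicate 2 stand out from their stages.

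The mean level at 360 min was between 26.5% and 59.4% of that at 120 min, with a median of 53.9%. In 34 of the 35 genes every 120 min library lay above every 360 min library, a pattern held by 14.4% of all tested genes, and NCU03297 was the exception. In 30 genes each 120 min library was also above each 240 min library and each of those above each 360 min library. This full order was not counted over all tested genes, and the rule chose on the same stage means, so nothing is read from that number. The 5 genes without that full order were NCU03297, *aga-1*, *lys-7*, NCU07996 and NCU11365. The share of the total fall that had taken place by 240 min ranged from 25.5% to 96.7%, with a median of 50.4%. It was at least 50% in 18 genes and below 50% in 17, so the timing of the fall varied across the set.

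With edgeR's quasi-likelihood test and Benjamini-Hochberg adjusted p under 0.05, 27.1% of all tested genes were lower at 360 than at 120 min, and all 35 members were among them. From 120 to 240 min, 9.73% of tested genes and 27 members were called lower. From 240 to 360 min, 21.1% of tested genes and 33 members were called lower, and the members without a call were *aga-1* and NCU03297. No member was called higher in these 3 comparisons, where 29.6%, 12.6% and 20.7% of tested genes were. Since the rule chose on these contrasts, nothing is read from the counts. With library totals alone the calls over all genes shifted, to 999 lower and 3834 higher from 120 to 360 min against 2200 and 2403 with TMM, to 578 lower and 3367 higher from 240 to 360 min against 1710 and 1680, and to 441 lower and 1134 higher from 120 to 240 min against 790 and 1022. The members' median log2 fold change from 120 to 360 min was −1.14 with TMM and −0.89 with totals alone.

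Of the 35 genes, 9 have a symbol in the RefSeq table of assembly NC12 (25.7%, against 13.4% of tested genes). These are *suc*, *gua-3*, *arg-3*, *ota*, *aga-1*, *ser-7*, *lys-7*, *ilv-4* and *ena-1*. The other 26 carry only a locus number there and are given by that number, with no role.

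Among the 9, 3 encode enzymes of arginine and ornithine metabolism. The gene *arg-3* (NCU02677, chrI:3170235-3175788) encodes the large subunit of the arginine-specific carbamoyl phosphate synthetase. It stood at 993, 989 and 1077 CPM at 15 min, at 1061, 923 and 887 CPM at 120 min, at 818, 778 and 744 CPM at 240 min, and at 590.0, 576 and 418 CPM at 360 min. The 15 and 120 min libraries overlapped, and from 120 min on each stage lay wholly below the one before. Its mean at 360 min was 55.2% of that at 120 min, a log2 fold change of −1.10 (SE 0.11). The gene overlaps NCU02678, whose highest stage mean was 9.42 CPM.

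The ornithine transaminase gene *ota* (NCU00194, chrIII:2949400-2952208) rose before it declined. Its levels were 171, 166 and 176 CPM at 15 min, 295, 437 and 426 CPM at 120 min, 259.8, 203 and 248 CPM at 240 min, and 157, 151 and 112 CPM at 360 min. All 120 min libraries were above all others, with replicate 1 the lowest of that stage, and all 360 min libraries were below the fresh spores. The mean at 120 min was 2.26 times that at 15 min, and the mean at 360 min was 36.3% of that at 120 min. By 240 min, 60.7% of the fall had taken place.

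The arginase gene *aga-1* (NCU02333, chrVII:2873838-2876240) split within 3 of the 4 stages. It stood at 561, 541 and 347 CPM at 15 min, at 432, 444 and 455 CPM at 120 min, at 173, 359 and 353 CPM at 240 min, and at 183, 348 and 129 CPM at 360 min. Only the 120 min libraries lay close together, and 240 min replicate 1 was below 360 min replicates 1 and 2. The log2 fold change from 120 to 360 min, −1.27, had an SE of 0.33, the second largest among the 35 after that of NCU03297. The gene is annotated with 2 transcripts, and its neighbor NCU17239 varied less, between 58.3 and 60.7 CPM at 240 min and between 66.0 and 83.0 CPM at 360 min.

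All 10 other genes with an *arg* symbol were tested, a list put together after the members were seen. Of these, 6 rose and 3 fell from 15 to 120 min, beside 43.1% and 39.6% of all tested genes. From 120 to 360 min 7 fell and 1 rose, beside 27.1% and 29.6%, with a median log2 fold change of −0.37. With library totals alone, 2 fell and 3 rose from 120 to 360 min, so these calls depend on the scaling. Side by side with *arg-3*, the small subunit of the same enzyme, *arg-2*, went from 421 CPM at 15 min to 326 CPM at 120 min and 379 CPM at 360 min, and its log2 fold change from 120 to 360 min was −0.03 (edgeR adjusted p = 0.58). The argininosuccinate synthetase gene *arg-1* rose from 304 to 718 CPM by 120 min and stood at 540.1 CPM at 360 min (log2 fold change −0.65, edgeR adjusted p = 0.000282). The argininosuccinate lyase gene *arg-10* went from 76.6 to 179 and then 126 CPM (log2 fold change −0.75, edgeR adjusted p = 3.6e-07). The gene *arg-13*, which encodes a mitochondrial carrier of basic amino acids, was lower at 120 than at 15 min (48.5 against 247 CPM) and at 64.2 CPM at 360 min (log2 fold change 0.16, edgeR adjusted p = 0.037). The regulator *cpc-1* declined at every stage, from 2465 CPM at 15 min to 1155, 1017 and 943 CPM, and missed the set on its ratio of 360 to 120 min.

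**Figure D2:**
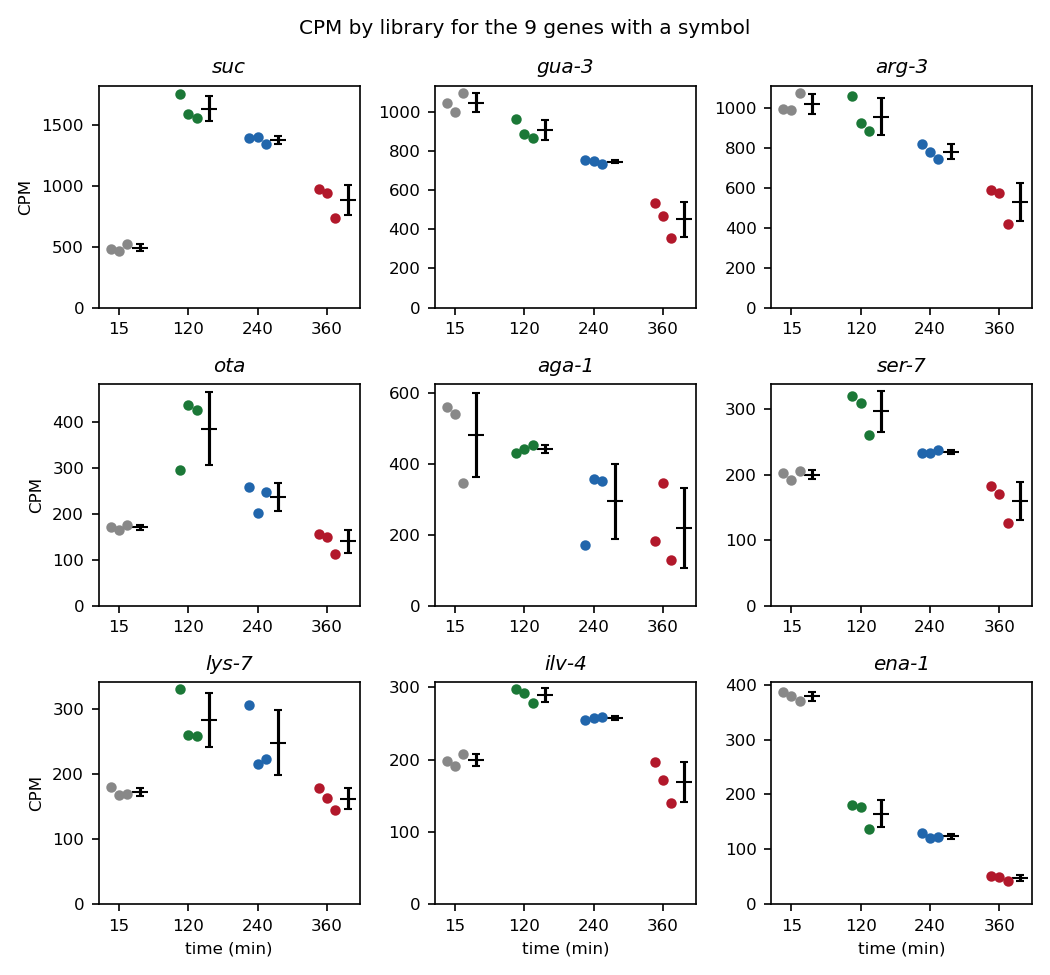
CPM on a linear axis from 0 against time (min) for the 9 genes with a symbol, with a point for each library (3 per stage) and, beside them, the mean with its SD. The genes *suc*, *ota*, *ser-7*, *lys-7* and *ilv-4* peak at 120 min, *ena-1* declines at every stage, and *aga-1* splits within stages.

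The largest fall in CPM was that of *suc* (NCU02505, chrI:2545011-2550588), the pyruvate carboxylase gene, whose enzyme refills the tricarboxylic acid cycle with oxaloacetate. It stood at 483, 469.7 and 524 CPM at 15 min, at 1757, 1591 and 1561 CPM at 120 min, at 1395, 1399 and 1343 CPM at 240 min, and at 973, 942 and 741 CPM at 360 min. No stages overlapped, and every 360 min library remained above every 15 min library. The mean was 3.33 times higher at 120 than at 15 min, and at 360 min it was 54.1% of the 120 min mean. Only 34.3% of that fall had taken place by 240 min. The 7 genes on the list of tricarboxylic acid and glyoxylate cycle enzymes, which has no member, had a median log2 fold change of 0.27 from 120 to 360 min, with 1 gene lower and 3 higher. That median was −0.054 without 360 min replicate 2. With library totals alone it was 0.52, with 1 gene lower and 4 higher.

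The gene *gua-3* (NCU02325, chrVII:2907428-2909897), named for a guanine requirement, was high from the start. It stood at 1045, 998 and 1094 CPM at 15 min, at 963, 885 and 867 CPM at 120 min, at 754, 746 and 735 CPM at 240 min, and at 532, 467 and 355 CPM at 360 min. No stages overlapped, and the mean at 360 min was 49.9% of that at 120 min. Per kilobase of gene, *gua-3* was the second most abundant member at 120 min (366 CPM per kb), after NCU03117 (663 CPM per kb) and before *suc* (293 CPM per kb).

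A further 3 members come from amino acid symbol series: *ser-7* (serine), *lys-7* (lysine) and *ilv-4* (isoleucine and valine). All were highest at 120 min. The gene *ser-7* (NCU01429) stood at 202, 192 and 205 CPM at 15 min, at 319, 309 and 260.5 CPM at 120 min, at 232, 233 and 237 CPM at 240 min, and at 182, 170.1 and 126 CPM at 360 min. Every 360 min library of *ser-7* was below every 15 min library. For *lys-7* (NCU02954) the values were 179.6, 168 and 169 CPM at 15 min, 331, 259 and 258 CPM at 120 min, 306, 216 and 223 CPM at 240 min, and 178, 163 and 145 CPM at 360 min. Replicate 1 was the highest library of *lys-7* at all 4 stages, and its 240 min value lay among the 120 min values. The gene *ilv-4* (NCU01666) went from 199, 191 and 208 CPM at 15 min to 297, 292 and 279 CPM at 120 min, 255, 258 and 259.6 CPM at 240 min, and 196, 172 and 140.5 CPM at 360 min. The stages from 120 min on did not overlap in *ilv-4*, and 26.5% of its fall had taken place by 240 min. It shares 206 bases with *arg-12*, the ornithine carbamoyltransferase gene, which stood at 62.8 CPM at 120 min and 60.3 CPM at 360 min.

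The list of amino acid genes, matched by symbol, held 62 tested genes, of which *arg-3*, *ser-7*, *lys-7* and *ilv-4* are members. These 4 had the lowest log2 fold changes of the list from 120 to 360 min, at −1.10, −1.14, −1.05 and −1.01, which is what the rule selected for. Of the other 58 genes, 42 were lower and 6 higher at 360 than at 120 min (edgeR, adjusted over all tested genes), with a median log2 fold change of −0.44, beside 27.1% lower, 29.6% higher and a median of 0.02 over all tested genes. With library totals alone, 29 were lower and 11 higher. From 15 to 120 min, 33 of the 58 rose and 17 fell, with a median of 0.43. Over all tested genes 43.1% rose and 39.6% fell, with a median of 0.04. The list was chosen with earlier results of these data known. Among genes outside the set, the nearest to the members was *his-3*, from the histidine series, at −0.96 (SE 0.16, edgeR adjusted p = 0.00028), and the highest was *gln-2*, a glutamine series gene, which rose from 32.8 to 113 CPM (log2 fold change 1.54, edgeR adjusted p = 1.5e-07).

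**Figure D3:**
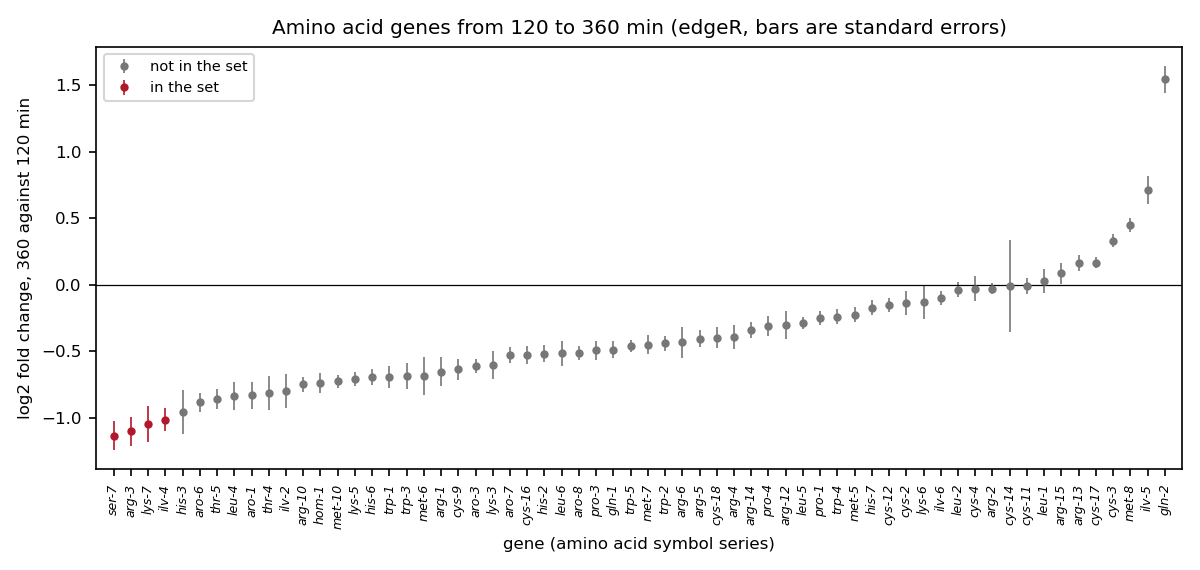
The edgeR log2 fold change from 120 to 360 min, with its standard error, for the 62 genes of the amino acid list, in order. The 4 members (red) are at the low end because the rule chose them for a low ratio, and most of the 58 other genes (gray) lie below 0.

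The gene *ena-1* (NCU05046, chrVI:3938154-3943089) encodes a P-type ATPase that pumps sodium out of the cell. It declined at every stage, from 387, 379 and 371 CPM at 15 min to 181, 178 and 136 CPM at 120 min, 129, 119.8 and 122 CPM at 240 min, and 51.2, 50.3 and 41.8 CPM at 360 min. No stages overlapped. Its 360 min mean, 47.8 ± 5.2 CPM (SD, n = 3), was 28.9% of that at 120 min, the second lowest ratio in the set. Most of this fall came after 240 min, with 35.3% of it before.

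The lowest ratio was that of NCU05038, which lies 27048 bases from *ena-1* on chromosome VI with 8 genes between them. It had a peak at 120 min: 29.6, 29 and 29.4 CPM at 15 min, 51.1, 54.2 and 43 CPM at 120 min, 27.2, 22.7 and 25.1 CPM at 240 min, and 13.2, 14.5 and 11.7 CPM at 360 min. The 120 min libraries were above all others and the 360 min libraries below all others. The 360 min mean was 26.5% of the 120 min mean, and 67.3% of the fall had taken place by 240 min. The rule chose both for a low 360 min level relative to 120 min. They differed in course, since *ena-1* was highest in fresh spores and NCU05038 was not.

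The members NCU01428 and *ser-7* are adjacent, and whether members lie near each other more often than other genes was not tested. NCU01428 (chrV:4781437-4783164) lies 254 bases from *ser-7* (chrV:4777829-4781182) with no gene between them. NCU01428 stood at 19.9, 18.7 and 22.1 CPM at 15 min, at 66.2, 77.9 and 54.4 CPM at 120 min, at 36.6, 36.5 and 34.7 CPM at 240 min, and at 20.6, 18.2 and 20.5 CPM at 360 min. The 360 and 15 min values overlapped, with 360 min replicate 2 the lowest of all, and no other stages did. Both genes peaked at 120 min, NCU01428 at 3.27 times and *ser-7* at 1.48 times the level in fresh spores, and their means at 360 min were 29.9% and 53.9% of those at 120 min. On chromosome VII, *aga-1*, *gua-3* and NCU02319 lie near each other, with 31187 bases and 12 genes between *aga-1* and *gua-3*, and 29485 bases and 6 genes between *gua-3* and NCU02319.

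Before 120 min the members differed in direction. The mean at 120 min was above that at 15 min in 15 genes and below it in 20, and the ratio ran from 0.274 to 10 with a median of 0.934. By the edgeR test 12 members were called higher and 16 lower at 120 than at 15 min, beside 43.1% and 39.6% of all tested genes. The members' shares, 34.3% and 45.7%, were near those over all genes, and the rule used the 120 min means, so nothing is read from these calls either.

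**Figure D4:**
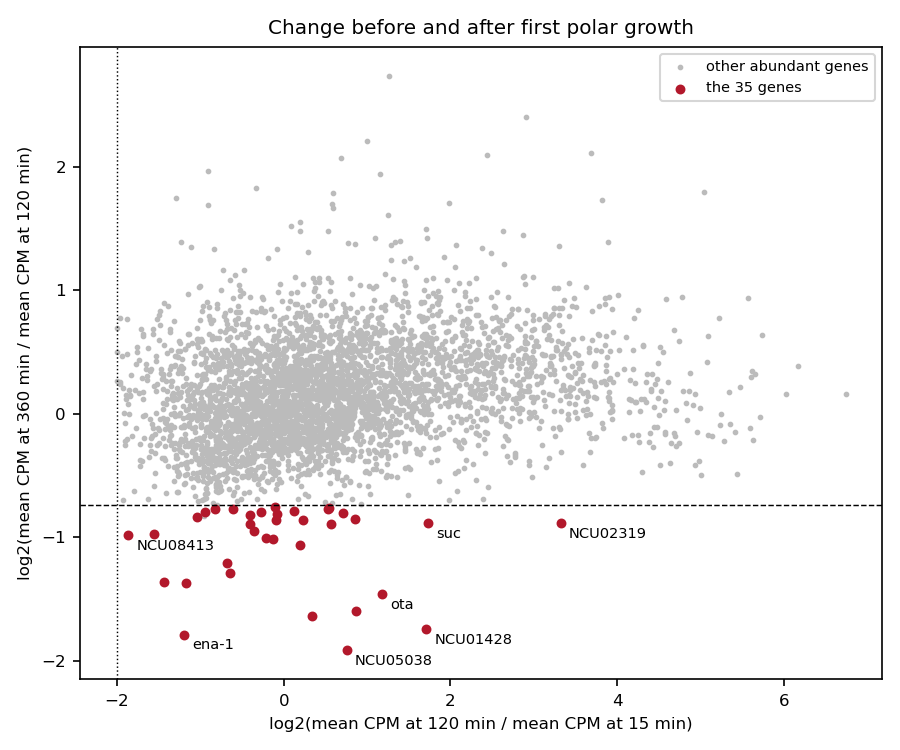
Each point is a gene that met the 120 min level conditions and was tested, with log2 of the ratio of mean CPM from 15 to 120 min on the x axis and from 120 to 360 min on the y axis. The 35 genes (red) lie under the dashed line, the ratio of 0.6, by choice, and on the x axis they run from NCU08413 (ratio 0.274), next to the dotted line at the lower bound of 0.25, to NCU02319 (ratio 10).

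NCU02319 had the steepest rise of the set. It stood at 32.9, 31.4 and 36 CPM at 15 min, at 349, 312 and 343 CPM at 120 min, at 232, 228 and 234 CPM at 240 min, and at 200.3, 195 and 148 CPM at 360 min. No stages overlapped, and with *suc* it is 1 of 3 members whose mean at 360 min was above that of fresh spores. The third, NCU01980, is named after its values were seen: its means of 19.5 ± 3.12 CPM at 360 min and 19.5 ± 0.843 CPM at 15 min (SD, n = 3) differed by less than the spread. NCU04583 rose less, from 35.7 CPM at 15 min to 64.9 CPM at 120 min, and then stood at 28.9 and 21.5 CPM, below its 15 min level, with 82.9% of its fall by 240 min.

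Other members fell from the spore onward. NCU03117 was the most abundant in fresh spores, at 2940.1, 2802 and 2969.7 CPM, and stood at 1556, 1505 and 1464 CPM at 120 min, at 1342, 1284 and 1297 CPM at 240 min, and at 1001, 878 and 737 CPM at 360 min. No stages of NCU03117 overlapped, and its fall from 15 to 120 min was the largest step. NCU02979 had the same order at 1624, 1531 and 1582 CPM, then 735, 695 and 682 CPM, then 528, 490.3 and 474 CPM, then 303, 294 and 222 CPM. Its mean at 360 min was 38.8% of that at 120 min, and no stages overlapped. NCU08685 went from 1233, 1243 and 1281 CPM at 15 min to 659, 588 and 582 CPM, then 536, 526 and 525 CPM, and then 401, 368 and 256 CPM. NCU08685 overlaps NCU10273, a gene that reached a stage mean of 230 CPM.

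The lowest ratios of 120 to 15 min were those of NCU08413, NCU02777, NCU08967, *ena-1* and NCU02979. NCU08413, which the study lists as a neighbor of a secondary metabolism cluster, stood at 151, 142 and 161 CPM at 15 min, at 37, 42 and 45.5 CPM at 120 min, at 31.5, 27.6 and 30.2 CPM at 240 min, and at 21.8, 17.1 and 24 CPM at 360 min. Its stages did not overlap. NCU02777 went from 92.2 CPM at 15 min to 31.3, 23.1 and 15.9 CPM, and NCU08967 from 356 CPM to 131, 83.0 and 51.0 CPM. Both lost most of their level before polar growth. NCU00707 fell by smaller steps, from 561 CPM to 438, 337 and 227 CPM, with an SD of 1.11 CPM at 120 min. NCU02560 likewise fell from 222 to 138, 97.3 and 60.0 CPM, and NCU04466 from 32.8 to 21, 12.9 and 8.59 CPM.

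NCU03297 (chrI:5221686-5224332) also split within a stage. It stood at 273, 248 and 267 CPM at 15 min, at 430.0, 129.8 and 439.9 CPM at 120 min, at 131, 129 and 130.3 CPM at 240 min, and at 132, 112 and 77.1 CPM at 360 min. The 120 min replicate 2 value lay with the 240 min libraries and under 360 min replicate 1, and the other 120 min libraries were the highest of all 12. The genes on either side showed no such split: NCU03296 lay between 46.1 and 48.5 CPM and NCU10810 between 170.0 and 176 CPM at 120 min. NCU03297 is annotated with 3 transcripts. Of the 35 members, 7 (20%) have more than 1 transcript, against 13.1% of the 3935 other tested genes that met the 120 min level conditions, and how reads were divided between transcripts was not tested.

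The thresholds passed through a continuous range. The members nearest the minimum of 20 CPM were NCU04466 (21 CPM at 120 min) and NCU11365 (23.4 CPM), and the nearest genes below it were NCU03149 (19.7 CPM) and NCU14169 (16.8 CPM). For the ratio of 360 to 120 min, NCU03768 (0.594) and NCU00137 (0.589) were just inside, and NCU01183 (0.606) and NCU09489 (0.608) just outside. Between a ratio of 0.6 and 0.7 lay 90 genes that met every other condition. For the ratio of 120 to 15 min, NCU08413 (0.274) and NCU02777 (0.339) were inside, and NCU08178 (0.240) and NCU00309 (0.209) outside. The members with the smallest fall from 120 to 240 min were *ilv-4* and NCU07996, both at a ratio of 0.890. From 240 to 360 min NCU11365 (0.977) and NCU03297 (0.823) were just inside, while NCU03261 (1.14) and the rRNA gene NCU15719 (1.13) rose and stayed out. NCU11365 had thus made 96.7% of its fall by 240 min.

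The members varied more between the 360 min replicates than other genes did. The rule chose low 360 min means, which a low library at that stage favors, so nothing is read from this difference. The median coefficient of variation of the members was 14.7% at 360 min, against 7.45% for the 3935 other abundant genes, and 3.65%, 6.0% and 3.31% at 15, 120 and 240 min, against 4.94%, 3.91% and 2.66%. Replicate 3 was the lowest 360 min library for 29 of the 35 genes. Below their stage mean there lay 30 members and 64.1% of the other abundant genes. In that library the members lay a median of 0.21 below their stage mean on the log2 scale, and the other abundant genes 0.05 below. With counts on rRNA genes taken out of the totals, it was still the lowest for 24 genes, with the members 0.12 below and the other genes 0.05 above their mean. Without this library the rule found 30 genes, 24 of them members, and lost *arg-3*, *lys-7*, *ilv-4*, NCU03117 and NCU08685 among others. The genes *suc*, *gua-3*, *ota*, *aga-1*, *ser-7* and *ena-1* met the rule whichever library was left out.

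The members lay on all 7 chromosomes, with 14 (40%) on chromosome I, which holds 25.2% of tested genes. Their lengths ran from 1087 to 5578 bases with a median of 2425, against 2330 for tested genes and 2594 for the other abundant genes. An annotated gene overlaps 7 of them, namely *arg-3*, NCU08685, *ser-7*, *ilv-4*, NCU04583, NCU01980 and NCU11365. The libraries were strand-specific and the aligner was given their strand. Whether the counting step used it is not stated, so how reads in these overlaps were assigned was not tested.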

How the data were processed

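RNA sequencing libraries of 12 samples (4 stages, 3 replicates each) were grouped by the sample labels. The authors trimmed bases under a quality of 20, aligned reads with HISAT2 2.1.0, estimated coverage with StringTie 1.3.3b and deposited whole-number counts per gene, which are estimates from coverage and are not normalized. CASAVA 1.8.2 is also listed in the submitters' processing notes. A deposited table of the authors' own ratios between stages, with credible intervals, was not used. CPM was computed over library totals. Counts were fitted with edgeR 4.0.16 (R 4.3.3, TMM, filterByExpr, glmQLFit on all 12 libraries, 1 mean per stage) and p-values adjusted by the Benjamini-Hochberg method over 8118 genes. The biological coefficient of variation was 0.10. SD is over 3 replicates. The members and the gene lists were chosen with earlier results of these data known, and lists were matched by symbol only. Of the 10592 locus numbers, 10590 matched the RefSeq table (NC12), whose coordinates are given. The genes named by rule are the members with the 10 largest falls and the 10 lowest ratios of 360 to 120 min. They also include the 5 highest and 5 lowest ratios of 120 to 15 min, the list members, and the 2 genes on each side of each threshold. Named outside these rules are NCU01980, NCU04642, the conidial genes, overlapping or flanking genes, *arg-1*, *arg-2*, *arg-10*, *arg-13*, *cpc-1*, *his-3* and *gln-2*. Alternatives were DESeq2 1.42.0, other scalings, other thresholds, a fit without the filter, a fit on the compared stages, a replicate block and leaving out each library.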

Additional observations from a re-analysis of the deposited data

How the results depend on the processing

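The set itself depended most on the scaling. With TMM-scaled CPM the rule found 158 genes in place of 35, with a ratio of at most 0.5 it found 13 and with 0.7 it found 125. A minimum of 10 or 50 CPM gave 40 or 28 genes, stage medians gave 37 (29 shared), and CPM relative to counts outside rRNA genes, added after seeing the data, gave 32 (31 shared). Leaving out 1 library gave 30 to 57 genes, with 57 without 360 min replicate 1, which included all 35. The members' calls from 120 to 360 min were fixed by the rule's ratio and bear on nothing here. From 120 to 240 min, 21 to 33 members were called lower when a library was left out, beside 425 to 1285 of all tested genes. From 15 to 120 min the call changed for 8 members in at least 1 alternative, and only NCU04642 reversed, from 0.14 to −0.12 with upper-quartile scaling. Among the other amino acid genes, 11 in place of 6 were higher at 360 than at 120 min with library totals alone. Of the lists, the tricarboxylic acid and glyoxylate median (0.27) was 0.52 with library totals alone. When a library was left out, it ran from −0.054 without 360 min replicate 2 to 0.36 without 360 min replicate 1. Over all genes, 790 were lower at 240 than at 120 min, 441 with library totals alone, 1282 in a fit of those stages only, and 425 to 1285 when a library was left out (504 without 120 min replicate 2, 425 and 427 without 240 min replicates 2 and 3, and 1285 without 360 min replicate 3), while the 1022 higher became 675 without 240 min replicate 3. With totals alone 578 genes were lower and 3367 higher from 240 to 360 min (main values 1710 and 1680), and 999 lower and 3834 higher from 120 to 360 min (2200 and 2403). The cause was not tested, apart from the scaling that each alternative names. Same-numbered libraries deviated together with r from −0.08 to 0.16 over 18 pairs, so the numbers were not taken as pairs. A fit with the replicate block called 17 members lower and 12 higher at 120 than at 15 min, beside 3177 and 3486 of all tested genes. From 120 to 240, 240 to 360 and 120 to 360 min it called 29, 32 and 35 members lower, beside 746, 1670 and 2171 of all tested genes. The rule used these stage means, so nothing is read from the members' counts. The planned comparison with the authors' table of stage ratios was not run, since that table holds their own comparisons. With 3 libraries per stage, a rule on means does not allow for the spread of *aga-1* or NCU03297.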

Other observations

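Gene lists, matched by symbol, that held no member of the set are given here from 120 to 360 min. Calls were counted by edgeR's quasi-likelihood test with Benjamini-Hochberg adjustment over all tested genes. Of all tested genes, 27.1% were lower and 29.6% higher, with a median log2 fold change of 0.02. With library totals alone the median of all genes was 0.26, and the counts shifted with it. Of 17 proteasome and ubiquitin genes, 16 were lower and 1 higher, with a median log2 fold change of −0.39, and with totals alone 8 were lower and 2 higher. All 7 cytosolic ribosomal protein genes with a symbol were lower (median −0.34), and none was called with totals alone. Of 8 purine and pyrimidine genes, a list that did not take in the member *gua-3*, 7 were lower (−0.40). With totals alone 4 of them were lower and 1 higher. Of 10 heat shock and chaperone genes, 6 were lower and 1 higher (−0.43), and with totals alone 5 and 4. Of 14 chromatin and DNA replication genes, 9 were lower (−0.25), and with totals alone 2 were lower and 2 higher. Of 6 secretory pathway genes, 4 were lower and 1 higher (−0.28), and with totals alone 1 and 2. Of 27 cell wall genes, 16 were higher and 2 lower (0.33), and with totals alone 20 were higher and none lower. Of 10 redox and stress enzyme genes, 6 were higher and 2 lower (0.53), and with totals alone 7 and 2. Of 46 respiratory chain, ATP synthase and *cyt* genes, 16 were lower and 16 higher (0.08), and with totals alone 6 and 28. Of 12 conidial genes, 4 were higher and 1 lower (0.24), and with totals alone 6 and 1.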
